A study of Mus musculus with 6 samples.

Results

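Serine and the folate one-carbon pathway were examined through 9 enzymes: Phgdh, Psat1, Psph, Shmt1, Shmt2, Mthfd1, Mthfd2, Mthfd1l and Aldh1l2. They were taken by symbol from the 17558 genes of the deposited expression table, all 9 were found, and all 9 passed the filter on low counts that kept 12643 genes. RNA came from C2C12, an immortalized mouse myoblast line whose cells fuse into myotubes after serum is lowered. All 6 libraries were harvested 48 h after the change to medium with 2% horse serum and insulin, transferrin and selenium. The control group (shScr) stably carried a scrambled short hairpin RNA and is labelled wild type. The groups shPkm1 and shPkm2 stably carried hairpins against the Pkm1 or the Pkm2 splice form of the pyruvate kinase gene Pkm, with 2 libraries in each of the 3 groups. The hairpin sequences, the number of hairpins per target and whether a line was a single clone are not given in the sources used here. Nothing in the labels says that replicates were separate cultures, so p-values measure only the spread between these libraries, which may be technical.

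Cells make serine from the glycolytic intermediate 3-phosphoglycerate, which lies upstream of pyruvate kinase. Phgdh oxidizes it, Psat1 adds the amino group and Psph removes the phosphate. Serine hydroxymethyltransferases then split serine into glycine and a carbon unit that is carried on tetrahydrofolate, Shmt1 in the cytosol and Shmt2 in mitochondria. Mthfd2, Mthfd1l and Aldh1l2 process that unit in mitochondria and Mthfd1 in the cytosol, where it serves the synthesis of purines, thymidylate and methionine. Proliferating cells are known for high activity of the mitochondrial branch, and the transcription factor Atf4 is known to induce several of these genes when amino acids are short.

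Libraries held 18216896 to 19796036 estimated counts. Per gene, Pkm stood lower in shPkm1 than in shScr (log2 fold change -0.63, SE 0.133, adjusted p 0.00107). The targeted Pkm2 form was not lower in the group named for it: it stood at 1073 and 1517 TPM in shScr and at 2700 and 2630 TPM in the shPkm2-labelled libraries. Those libraries are therefore called by their label throughout. The Pkm1 form was lower in both Pkm hairpin groups, at 546 and 589 TPM in shScr, 243 and 218 in shPkm1 and 254 and 254 in the shPkm2-labelled libraries. The reads that the 2 forms share were divided by the authors' counting. Control libraries differed from each other more than the others did, with a chi-square per degree of freedom of 32.3 against 6.16 in shPkm1 and 6.93 in the shPkm2-labelled libraries. The main test shares its estimate of the spread across the groups. Its standard errors and p-values against shScr may therefore be too small.

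The state of the cultures differed between groups. Muscle markers were expressed in every library, but all 8 were lower in each Pkm hairpin group, and their summed level ran from 23338 to 30088 TPM in shScr, 11705 to 12641 in shPkm1 and 989 to 1061 in the shPkm2-labelled libraries. Proliferation markers went the other way. In shPkm1 10 of 14 were higher and in the shPkm2-labelled libraries 14 of 14, against 31.8% and 33.9% of all tested genes. The summed level of these markers was 370 and 485 TPM in shScr, 844 and 816 in shPkm1 and 2184 and 2097 in the shPkm2-labelled libraries. Fibroblast markers summed to 3.69 and 3.50 TPM in shScr, 23.8 and 22.3 in shPkm1 and 12.1 and 10.7 in the shPkm2-labelled libraries. All 4 tested markers of that list were higher in shPkm1, and Lum was at 0 in both control libraries. Of the same 4, 1 was higher and 2 lower in the shPkm2-labelled libraries (0 lower with library totals only or with limma on log2(TPM + 1)), and Pdgfra alone made up 10.2 and 9.47 TPM of the sum. Over all tested genes, 33.9% were higher and 34.2% lower there, and 31.8% and 31.4% in shPkm1. The 4 adipocyte markers in the table summed to at most 1.06 TPM, the 5 endothelial ones to at most 0.33 and 2 immune ones (Cd68 and Itgam) to at most 3.62. The part of proliferating, unfused or fibroblast-like cells in the results below was not tested. In bulk RNA, fewer cells of a type and less RNA per cell cannot be told apart.

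Sequence before the start sites was read for the members, since several of them moved together. RefSeq (GRCm38.p6, the same assembly as the mm10 named in the submitters' processing notes) gave start-site windows for 8 of the 9 enzymes, 9 windows in all. Windows of 250 bases before the start are shown for a pair that rose in shPkm1 with similar patterns (Psat1 and Mthfd2). Also shown are the pair that went the opposite way (Shmt1 and Mthfd1) and the pair that moved least (Phgdh and Shmt2). Each is written 5′ to 3′ on the strand of the gene, and capitals mark matches to the motifs named after the sequences.
Psat1 (chr19:15925060-15925309, minus strand): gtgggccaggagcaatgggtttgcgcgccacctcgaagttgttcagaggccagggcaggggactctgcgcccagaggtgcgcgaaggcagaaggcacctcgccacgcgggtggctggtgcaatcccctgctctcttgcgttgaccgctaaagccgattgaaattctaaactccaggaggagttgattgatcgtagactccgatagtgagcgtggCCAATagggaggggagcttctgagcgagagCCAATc
Mthfd2 (chr6:83317605-83317854, minus strand): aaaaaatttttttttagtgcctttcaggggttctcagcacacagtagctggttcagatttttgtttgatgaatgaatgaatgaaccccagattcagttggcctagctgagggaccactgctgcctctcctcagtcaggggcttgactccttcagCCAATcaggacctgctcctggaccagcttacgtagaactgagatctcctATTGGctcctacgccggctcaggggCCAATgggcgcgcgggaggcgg
Shmt1 (chr11:60811266-60811515, minus strand): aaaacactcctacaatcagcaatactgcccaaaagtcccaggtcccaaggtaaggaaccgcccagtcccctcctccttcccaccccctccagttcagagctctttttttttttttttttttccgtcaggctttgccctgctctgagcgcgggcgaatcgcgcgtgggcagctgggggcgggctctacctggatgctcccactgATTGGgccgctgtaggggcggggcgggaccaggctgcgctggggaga
Mthfd1 (chr12:76254982-76255231, plus strand): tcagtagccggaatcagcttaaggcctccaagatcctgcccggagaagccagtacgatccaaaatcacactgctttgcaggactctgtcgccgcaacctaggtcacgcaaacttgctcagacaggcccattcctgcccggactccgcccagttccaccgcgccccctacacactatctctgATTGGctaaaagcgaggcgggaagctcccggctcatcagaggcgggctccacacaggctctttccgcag
Phgdh (chr3:98339970-98340219, minus strand): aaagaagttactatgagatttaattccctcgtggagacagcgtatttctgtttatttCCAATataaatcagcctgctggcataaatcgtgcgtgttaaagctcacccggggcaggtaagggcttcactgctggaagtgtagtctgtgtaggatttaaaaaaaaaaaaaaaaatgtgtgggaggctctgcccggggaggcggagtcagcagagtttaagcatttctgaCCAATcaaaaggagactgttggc
Shmt2 (chr10:127522445-127522694, minus strand): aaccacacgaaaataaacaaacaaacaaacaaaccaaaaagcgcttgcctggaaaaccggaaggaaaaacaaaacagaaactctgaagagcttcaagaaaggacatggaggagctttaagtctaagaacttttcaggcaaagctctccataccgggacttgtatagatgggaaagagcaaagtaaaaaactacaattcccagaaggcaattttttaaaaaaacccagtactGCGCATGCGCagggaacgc
In the GENCODE annotation of this build, the windows of Mthfd2 and Psat1 lie inside the span of longer transcripts of their own gene, and that of Mthfd1 overlaps a non-coding transcript on the opposite strand. The windows of Mthfd1 and Mthfd2 also lie inside the RefSeq spans of these genes. Whether the authors' counting used strand is not given in the sources used here, so reads from Mthfd1 and that transcript cannot be told apart where they overlap. Both strands were searched. The CCAAT box (CCAAT) was present in the windows of 6 of 8 enzymes, namely Phgdh, Psat1, Psph, Mthfd2, Shmt1 and Mthfd1. Per window, this was 6 of 9, since the other window of Psat1 had no match, against 33.9% of all 32841 windows. Mthfd2 held 3 copies, whose first bases lay 96, 47 and 22 bases before the start. Psat1 held copies from 36 and 6 bases and Shmt1 a copy from 47 bases before the start. The only match to the NRF1 element (the run of 10 capitals in the Shmt2 window, in 0.783% of all windows) was in Shmt2, from 19 to 10 bases before its start. The composite element bound by Atf4 (TGATGNAAN, 3.43% of windows), the E-box (CACGTG, 6.02%) and an E2F element (TTTGGCGC or TTTCCCGC, 1.30%) had no match in any of the 9 windows, which says only that these letters are not within these 250 bases. No motif overlapped another in the windows shown. The CCAAT and NRF1 motifs were chosen after the windows had been read.

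In TPM, a transcript abundance that is scaled to length and so can be compared between genes, the 9 enzymes spanned a wide range in the control. Phgdh was at 168 ± 1.16 TPM (SD, n = 2), Shmt2 at 146 ± 7.02 and Psat1 at 100.4 ± 0.156. Mthfd2 (34.4 ± 1.10), Mthfd1 (24.4 ± 1.38) and Psph (21.0 ± 2.22) formed a middle group. Mthfd1l (10.2 ± 1.08), Aldh1l2 (9.71 ± 0.255) and Shmt1 (8.60 ± 0.530) were lowest, and the neighbours Mthfd1l and Aldh1l2 did not differ beyond their spread. The mitochondrial hydroxymethyltransferase transcript thus stood far above its cytosolic counterpart. TPM sums to the same total in every library, so the levels below, which compare groups, are given as counts relative to library size after TMM scaling (scaled CPM).

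Compared with shScr, 6 of the 9 enzymes were higher and 2 lower in shPkm1, where 31.8% of all tested genes were higher and 31.4% lower. The enzymes that rose were Aldh1l2, Psph, Mthfd1l, Mthfd2, Psat1 and Phgdh, and those that fell were the cytosolic enzymes Shmt1 and Mthfd1. Shmt2 did not pass the threshold. In the shPkm2-labelled libraries the count was 3 higher (Mthfd1l, Shmt1, Mthfd1) and 2 lower (Psph, Psat1), where 33.9% of all genes were higher and 34.2% lower. With library totals only the split there was 6 higher and 0 lower, and with limma on log2(TPM + 1), called the value in TPM from here on, 7 and 0. In shPkm1 both gave 1 lower in place of 2. With these 2 settings the median log2 fold change over all genes itself stood at 0.19 and 0.31 in shPkm1. In the shPkm2-labelled libraries it stood at 0.33 and 0.36. Directly compared with shPkm1, 3 enzymes were higher (Shmt1, Mthfd1, Mthfd1l) and 5 lower (Aldh1l2, Psph, Psat1, Mthfd2, Shmt2) in the shPkm2-labelled libraries, against 25.7% and 27.3% of all genes. The median log2 fold change of the 9 was 0.75 in shPkm1, 0.04 in the shPkm2-labelled libraries and -0.26 between them, with medians over all genes of 0.00, 0.01 and 0.005. The 2 comparisons with shScr share their control libraries.

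**Figure D1:**
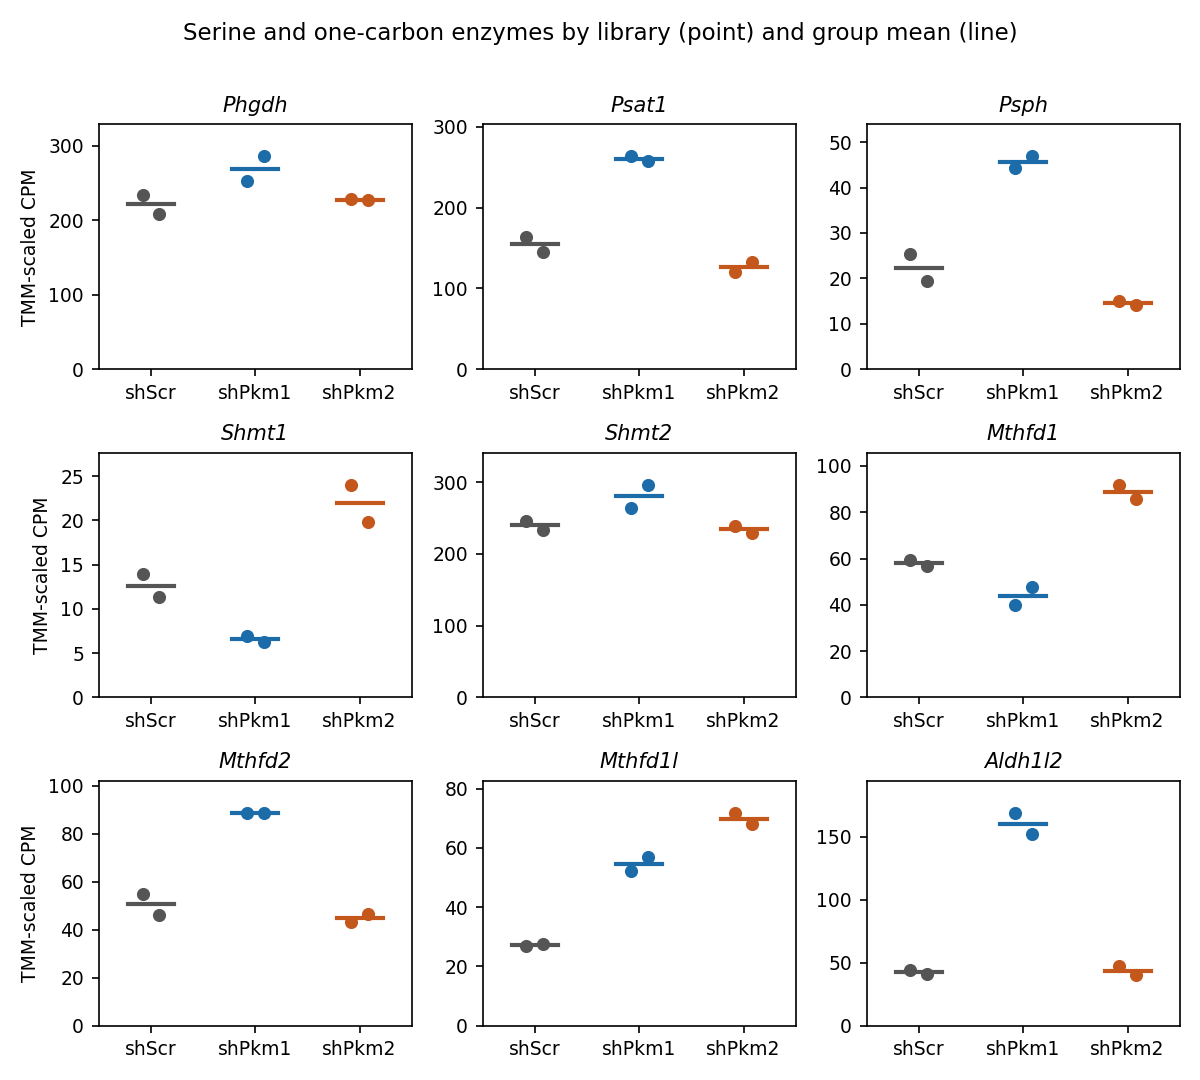
Levels of the 9 enzymes in scaled CPM (vertical axes from 0, a separate scale per gene) in the 3 groups; points are libraries and lines group means. Aldh1l2 stood at 169 and 152 in shPkm1 against 40.3 to 47.2 in the other 4 libraries, while Shmt1 and Mthfd1 were lowest in shPkm1 and highest in the shPkm2-labelled libraries.

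Serine synthesis came first in the order of the pathway. Phgdh (chr3:98313171-98339969), which catalyses its first step, was at 234 and 209 scaled CPM in shScr, 252 and 286 in shPkm1 and 229 and 226 in the shPkm2-labelled libraries. The shPkm1 libraries lay above the other 4, but by little. The log2 fold change in shPkm1 was 0.28 (SE 0.105, adjusted p 0.0322), and it was 0.19 (adjusted p 0.242) without shPkm1 library 2 and 0.20 (adjusted p 0.105) without shScr library 2. It was 0.48 (adjusted p 0.00111) with library totals only and 0.67 (adjusted p 8.91e-05) in TPM. For the shPkm2-labelled libraries against shScr it was 0.04 (adjusted p 0.750), with an interval from -0.19 to 0.27. With library totals as the only scaling, that value was 0.37 and passed the test (adjusted p 0.00532).

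Psat1 (chr19:15905123-15925059), the aminotransferase of the second step, was at 164 and 146 scaled CPM in shScr, 264 and 258 in shPkm1 and 121 and 133 in the shPkm2-labelled libraries. The 3 groups did not overlap, although in any single comparison this held for 79.8% to 83.9% of all tested genes. It was 1.68-fold higher in shPkm1 than in shScr (log2 fold change 0.75, SE 0.103, adjusted p 3.25e-05; 1.14 in TPM). In the shPkm2-labelled libraries it was lower, at a log2 value of -0.285 (SE 0.103, adjusted p 0.0248). That fall depended on scaling. With library totals only the value was 0.04 (adjusted p 0.726, all-gene median 0.33) and in TPM 0.17 (adjusted p 0.140, all-gene median 0.36). Without shScr library 1 it was -0.20 (adjusted p 0.102) and without shPkm2 library 1 -0.21 (adjusted p 0.215). Between the Pkm hairpin groups Psat1 differed by -1.04 (SE 0.103, adjusted p 2.14e-06).

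Psph (chr5:129765558-129787443), the phosphatase that releases serine, was at 25.4 and 19.4 scaled CPM in shScr, 44.4 and 46.9 in shPkm1 and 15.1 and 14.2 in the shPkm2-labelled libraries. Again no group overlapped another. The rise in shPkm1 was 2.04-fold (log2 fold change 1.03, SE 0.127, adjusted p 1.39e-05). The fall in the shPkm2-labelled libraries was -0.61 (SE 0.135, adjusted p 0.00129), and -0.28 (adjusted p 0.0683) with library totals only, -0.145 (adjusted p 0.314) in TPM and -0.40 (adjusted p 0.00829) without shScr library 1. From shPkm1 to the shPkm2-labelled libraries the change was -1.64 (SE 0.130, adjusted p 2.37e-07). In the same contrast Phgdh stood at -0.24 (adjusted p 0.0690), which did not pass the threshold.

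Serine hydroxymethyltransferases form the branch point between serine and the folate pool. Shmt1 (chr11:60788897-60811265), the cytosolic form, was at 13.9 and 11.3 scaled CPM in shScr, 6.98 and 6.32 in shPkm1 and 24.1 and 19.8 in the shPkm2-labelled libraries. No group overlapped another, on 125 to 511 counts per library. Shmt1 was 1.89-fold lower in shPkm1 (log2 fold change -0.92, SE 0.164, adjusted p 2.94e-04) and 1.74-fold higher in the shPkm2-labelled libraries (0.80, SE 0.147, adjusted p 2.98e-04). In TPM the fall was -0.455 (adjusted p 0.0249) and the rise 1.17 (adjusted p 3.76e-05). Between the Pkm hairpin groups it differed 3.3-fold (1.72, SE 0.155, adjusted p 8.50e-07), which placed it at the 97.4th percentile of the log2 fold changes of all tested genes.

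Shmt2 (chr10:127517123-127522444), the mitochondrial form, was at 246 and 233 scaled CPM in shScr, 263 and 297 in shPkm1 and 240 and 229 in the shPkm2-labelled libraries. The shScr and shPkm2-labelled groups overlapped. The log2 fold change was 0.23 in shPkm1 (SE 0.102, adjusted p 0.0686), with a 95% interval from 0.006 to 0.45, and 0.42 (adjusted p 0.00271) with library totals only. In the shPkm2-labelled libraries it was -0.03 (adjusted p 0.800, interval -0.25 to 0.19), and 0.30 (adjusted p 0.0186) with library totals only. The direct contrast was just past the threshold, at -0.26 (SE 0.101, adjusted p 0.0482), and lost its call under 10 of 16 alternatives, at -0.125 (adjusted p 0.312) with library totals only and -0.17 (adjusted p 0.329) without shPkm1 library 2.

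**Figure D2:**
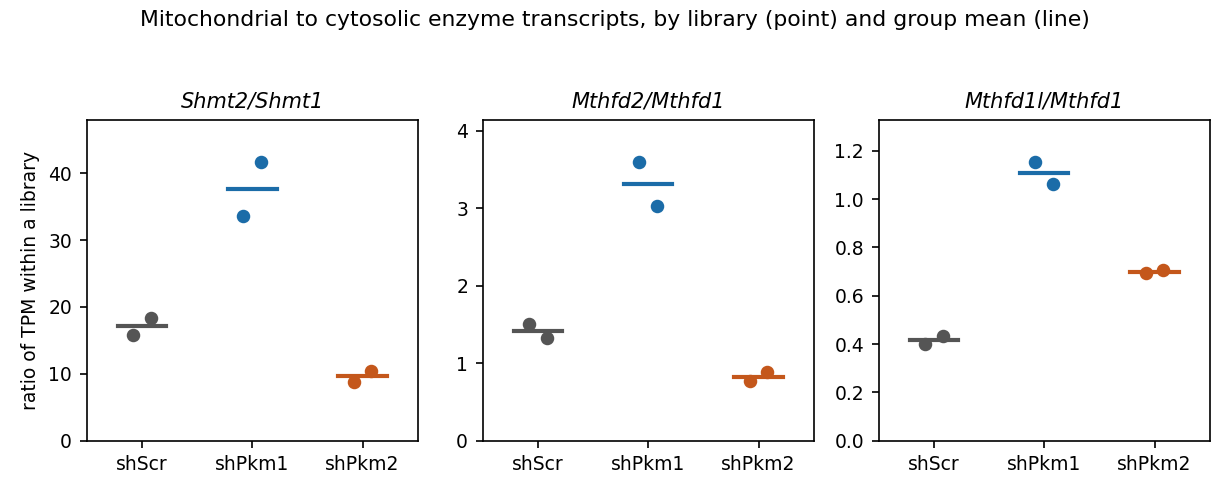
Ratios of TPM between mitochondrial and cytosolic partners within each library (vertical axes from 0, a separate scale per ratio) in the 3 groups; points are libraries and lines group means. The ratios of Shmt2 to Shmt1 and of Mthfd2 to Mthfd1 are highest in shPkm1 and lowest in the shPkm2-labelled libraries, while Mthfd1l to Mthfd1 is lowest in shScr.

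A ratio of TPM within a library does not depend on how libraries are scaled to each other. Shmt2 stood 15.8 and 18.4 times above Shmt1 in shScr, 33.5 and 41.7 times in shPkm1 and 8.85 and 10.3 times in the shPkm2-labelled libraries. The mitochondrial form thus predominated in every library, and the groups did not overlap. With 2 libraries against 2, no permutation test of such a ratio can give a two-sided p below 0.333, so none is given.

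The cytosolic and mitochondrial folate enzymes came next. Mthfd1 (chr12:76254406-76319820) is the cytosolic enzyme with 3 activities that interconvert methylene-, methenyl-, and formyl-tetrahydrofolate and formate. It was at 59.3 and 56.9 scaled CPM in shScr, 40.1 and 47.7 in shPkm1 and 92.0 and 85.9 in the shPkm2-labelled libraries. Its order of groups was that of Shmt1. The rise in the shPkm2-labelled libraries was 1.53-fold (log2 fold change 0.615, SE 0.105, adjusted p 1.71e-04), and the direct contrast was 1.02 (SE 0.106, adjusted p 3.50e-06). That rise was 0.94 with library totals only and 1.04 in TPM, on the log2 scale. The fall in shPkm1 was -0.40 (SE 0.108, adjusted p 0.00544). It was -0.21 (adjusted p 0.112) with library totals only, -0.02 (adjusted p 0.916) in TPM and -0.27 (adjusted p 0.110) without shPkm1 library 1.

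Mthfd2 (chr6:83305704-83326011), the mitochondrial dehydrogenase and cyclohydrolase, was at 54.8 and 46.3 scaled CPM in shScr, 88.8 and 88.6 in shPkm1 and 43.4 and 46.6 in the shPkm2-labelled libraries. The shPkm1 libraries stood apart, and the other groups overlapped. Mthfd2 was 1.75-fold higher in shPkm1 (log2 fold change 0.81, SE 0.105, adjusted p 2.12e-05) and differed by -0.98 (SE 0.105, adjusted p 4.40e-06) between the Pkm hairpin groups. In the shPkm2-labelled libraries the value against shScr was -0.17 (adjusted p 0.178, interval -0.40 to 0.06). It was 0.16 (adjusted p 0.184) with library totals only, 0.28 (adjusted p 0.0297) in TPM and -0.28 (adjusted p 0.0220) without shScr library 2. The ratio of Mthfd2 to Mthfd1 in TPM was 1.504 and 1.33 in shScr, 3.60 and 3.025 in shPkm1 and 0.769 and 0.882 in the shPkm2-labelled libraries. The mitochondrial transcript was thus the more abundant of the pair in shScr and shPkm1 and the less abundant in the shPkm2-labelled libraries.

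Mthfd1l (chr10:3972892-4167081), which releases formate from formyl-tetrahydrofolate in mitochondria, was at 26.8 and 27.6 scaled CPM in shScr, 52.1 and 56.8 in shPkm1 and 71.9 and 68.0 in the shPkm2-labelled libraries. With TMM scaling it alone of the 9 enzymes was called higher in both Pkm hairpin groups, while with library totals only Phgdh, Shmt2 and Aldh1l2 were too. The rise was 2.00-fold in shPkm1 (log2 fold change 1.00, SE 0.103, adjusted p 2.61e-06) and 2.57-fold in the shPkm2-labelled libraries (1.36, SE 0.102, adjusted p 7.72e-08). The difference between these groups was 0.36 (SE 0.0973, adjusted p 0.00682). It was 0.29 (adjusted p 0.0900) without shPkm1 library 1 and 0.31 (adjusted p 0.0849) without shPkm2 library 1. The ratio of Mthfd1l to Mthfd1 in TPM was 0.402 and 0.432 in shScr, 1.154 and 1.06 in shPkm1 and 0.696 and 0.705 in the shPkm2-labelled libraries.

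Aldh1l2 (chr10:83487447-83534146), the mitochondrial enzyme that oxidizes formyl-tetrahydrofolate to carbon dioxide and makes NADPH, was at 44.2 and 40.7 scaled CPM in shScr, 169 and 152 in shPkm1 and 47.2 and 40.3 in the shPkm2-labelled libraries. Both shPkm1 libraries stood far above the other 4, which overlapped. The rise in shPkm1 was 3.77-fold (log2 fold change 1.92, SE 0.112, adjusted p 1.76e-08), at the 95.6th percentile of the log2 fold changes of all tested genes. Directly compared with shPkm1, the shPkm2-labelled libraries had a value of -1.87 (SE 0.111, adjusted p 1.51e-08). Against shScr they differed by 0.04 (adjusted p 0.752, interval -0.20 to 0.29), and by 0.37 (adjusted p 0.0136) with library totals only. In TPM, Aldh1l2 moved from 9.71 ± 0.255 (SD, n = 2) in shScr to 48.3 ± 5.65 in shPkm1, where it exceeded Mthfd1 and Mthfd1l.

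**Figure D3:**
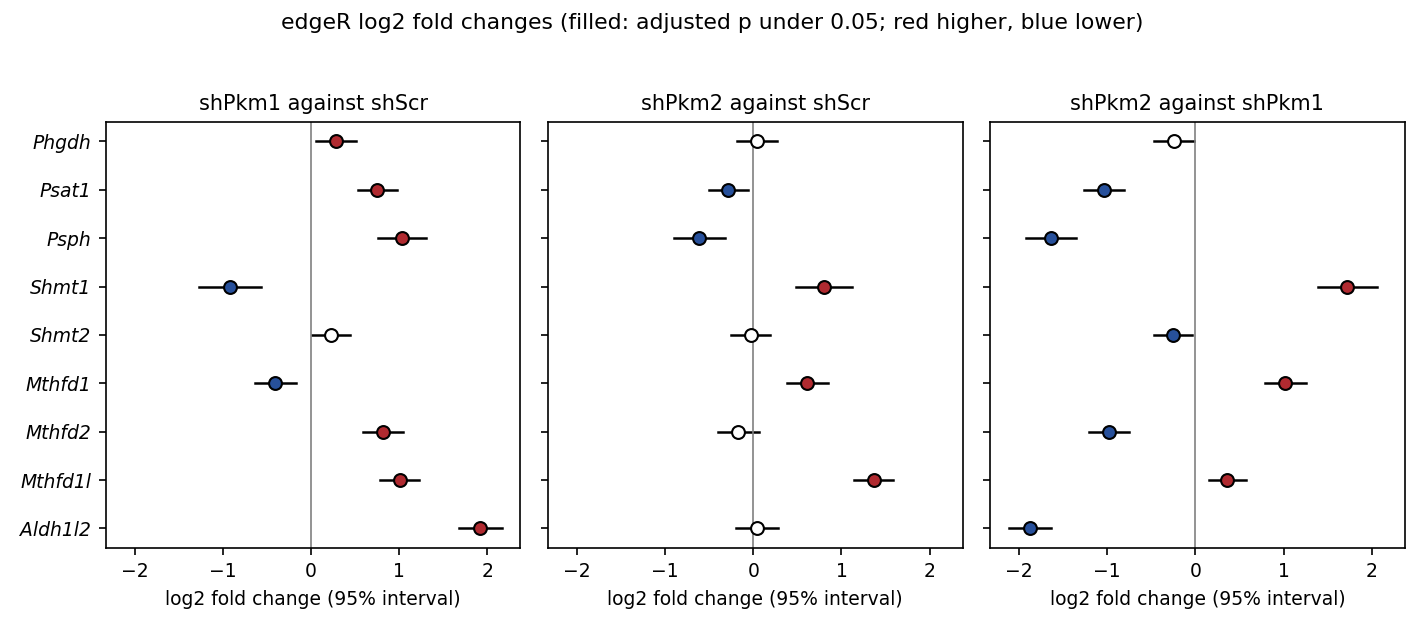
Log2 fold changes of the 9 enzymes with 95% intervals (horizontal axis) for the 3 comparisons; filled points passed an adjusted p of 0.05. In shPkm1 the values run from -0.92 for Shmt1 to 1.92 for Aldh1l2, and in the direct comparison Shmt1 and Mthfd1 lie to the right and Aldh1l2, Psph, Psat1 and Mthfd2 to the left.

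The choice of scaling bore on these counts. With library totals only, the median log2 fold change of all genes moved by 0.195 in shPkm1, by 0.325 in the shPkm2-labelled libraries and by 0.13 in the direct comparison. Higher genes then made up 65.8%, 69.3% and 61.3% of calls, against 50.3%, 49.8% and 48.4%. In TPM the median moved by 0.314, 0.357 and 0.056, and higher genes made up 78.1%, 75.7% and 53.8% of calls. A value near 0 in TPM against shScr thus lies below that of the median gene. Some calls held under all 16 alternatives, the scaling ones included. In shPkm1 they were the rises of Psat1, Psph, Mthfd2, Mthfd1l and Aldh1l2 and the fall of Shmt1. In the shPkm2-labelled libraries they were the rises of Shmt1, Mthfd1 and Mthfd1l. In the direct comparison they were the higher levels of Shmt1 and Mthfd1 and the lower levels of Psat1, Psph, Mthfd2 and Aldh1l2. The remaining values of the 9 enzymes gained or lost a call under at least 1 alternative.

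The size of change was set beside that of all genes, with no test. The median absolute log2 fold change of the 9 was 0.81 in shPkm1, where it was 0.49 over all genes, 0.285 in the shPkm2-labelled libraries, where it was 0.59, and 1.02 in the direct comparison, where it was 0.38. All 9 enzymes had groups that did not overlap in shPkm1 against shScr and in the direct comparison, where this held for 81.0% and 79.8% of all genes. In the shPkm2-labelled libraries it held for 5 of 9, against 83.9% of all genes. Shares of genes called in either direction were 63.1%, 68.0% and 53.0%.

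Likeness between members was measured as the distance between their centred log2 CPM over the 6 libraries (the root of the summed squared differences). The closest pair was Phgdh and Shmt2 at 0.103, followed by Mthfd2 and Psat1 at 0.134. Genes that barely change are close to each other by this measure, which bears on the first pair and its neighbours. Psat1 and Psph were 0.639 apart, and Shmt1 and Mthfd1, the cytosolic pair, 0.786. The largest distance was 3.77, between Aldh1l2 and Shmt1. Among 10720 genes, the 3 nearest to Phgdh were Cxxc5 (0.061), Itpk1 (0.101) and Shmt2, with a median distance of 0.876 over all of them. Nearest to Shmt2 were Pcdhb17 (0.093), Phgdh and Per1 (0.109), and nearest to Mthfd2 were Gmppa (0.132), Psat1 and Fkbp11 (0.148), with medians of 0.861 and 1.365.

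Other genes of serine, glycine, folate and methionine metabolism were taken as 50 genes in 4 lists, of which 40 were tested. In shPkm1, 16 were higher and 12 lower, in the shPkm2-labelled libraries 13 and 13, and in the direct comparison 8 higher and 13 lower. Their median log2 fold changes were 0.08, 0.07 and -0.11. With library totals only, the counts were 21 and 6, 21 and 8, and 10 and 9. With TMM scaling, 31.8% of all genes were higher and 31.4% lower in shPkm1. The shares were 33.9% and 34.2% in the shPkm2-labelled libraries and 25.7% and 27.3% in the direct comparison. The TMM counts of each list below are to be read against these shares. With library totals only, 7772, 8797 and 6979 of 12643 genes were called, 65.8%, 69.3% and 61.3% of them higher. In TPM 7926, 8744 and 6017 were called, 78.1%, 75.7% and 53.8% of them higher. List counts under those settings are to be read against these.

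**Figure D4:**
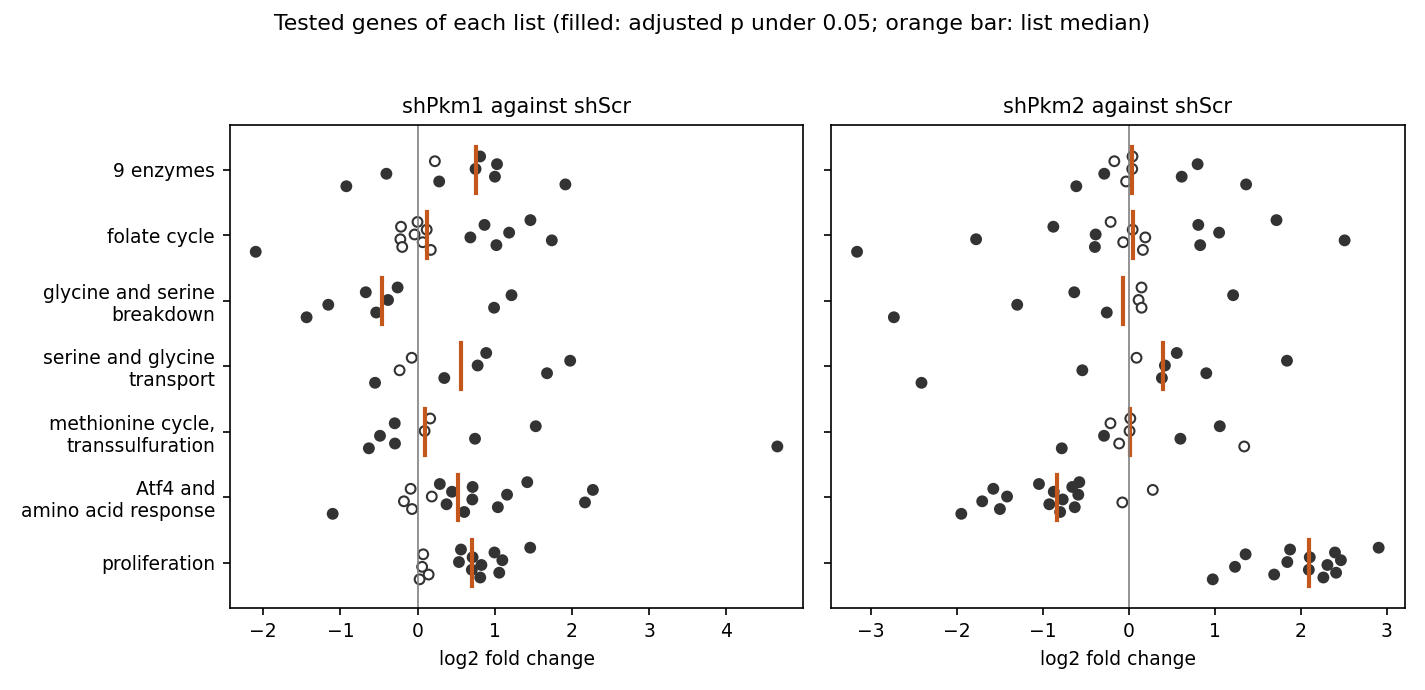
Log2 fold changes (horizontal axis) of the 9 enzymes and of the tested genes of the pathway, Atf4 and proliferation lists against shScr, in shPkm1 (left) and the shPkm2-labelled libraries (right); each point is a gene, filled where it passed an adjusted p of 0.05, and bars are list medians. Genes of the Atf4 list have a median of 0.53 in shPkm1 and -0.835 in the shPkm2-labelled libraries, while proliferation markers have medians of 0.71 and 2.10.

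Among 15 tested genes that make, carry or use folate, 6 were higher and 1 lower in shPkm1 and 5 higher and 5 lower in the shPkm2-labelled libraries. Both with library totals only and in TPM, the counts were 9 and 1, and 8 and 3. Without shPkm2 library 2 the shPkm2-labelled count was 4 and 3, and without shPkm1 library 2 no gene was called lower in shPkm1. Tyms, the thymidylate synthase, rose by 0.87 and 1.72 on the log2 scale. Slc25a32, the mitochondrial folate carrier, rose by 1.46 and 0.81. The second rise (adjusted p 3.78e-05) lost its call under 1 of 16 alternatives. The single gene called lower in shPkm1, named after its values were seen, was the folate receptor Folr1, on a mean of only 5.3 counts. Paralogues of 2 members were always read. Mthfd2l, the close relative of Mthfd2, was higher in both Pkm hairpin groups (0.685 and 0.83), and the ratio of Mthfd2 to Mthfd2l in TPM was 8.49 to 10.9 in shScr and shPkm1 and 4.43 and 4.71 in the shPkm2-labelled libraries. Aldh1l1, the cytosolic relative of Aldh1l2, had only 17 and 41 counts in shScr, 106 and 116 in shPkm1 and 11 and 10 in the shPkm2-labelled libraries. It was higher in shPkm1 (1.74, SE 0.299, adjusted p 2.24e-04) and lower in the shPkm2-labelled libraries (-1.775, SE 0.411, adjusted p 0.00177). Without shScr library 1 these values were 1.31 and -2.20, without shScr library 2 they were 2.41 and -1.10, and in TPM 1.33 and -0.43, all still called.

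Of 8 tested genes that break down glycine and serine, 2 were higher and 6 lower in shPkm1, and 1 higher and 4 lower in the shPkm2-labelled libraries. The balance depended on scaling, with 2 and 3, and 4 and 3, with library totals only, and 2 and 2, and 4 and 2, in TPM. In shPkm1 it was also 1 and 3 without shPkm1 library 1, and 1 and 4 without shScr library 1. For the shPkm2-labelled libraries it was 0 and 3 without either of them or without shScr library 1. Gldc, the decarboxylase of the glycine cleavage system, changed by -1.16 and -2.73 in the 2 groups, and by -0.51 and -1.24 in TPM. Sardh, the sarcosine dehydrogenase of mitochondria, was higher in shPkm1 (0.99, adjusted p 3.14e-05) and Gcat, which splits 2-amino-3-ketobutyrate into glycine and acetyl-CoA, lower (-0.67, adjusted p 6.43e-04, but -0.30, adjusted p 0.0660, in TPM). Of 8 transporters, 5 were higher and 1 lower (Slc6a9) in shPkm1, and 5 higher and 2 lower (Slc6a9 and Slc25a38) in the shPkm2-labelled libraries. In TPM the counts were 5 and 0, and 6 and 1, and without shPkm2 library 2 the second was 4 and 1. The fall of Slc6a9 in shPkm1 was -0.55 (adjusted p 2.85e-04), and -0.15 (adjusted p 0.316) in TPM. That of Slc25a38 was -0.54 (adjusted p 0.00972), but -0.22 (adjusted p 0.257) with library totals only, -0.12 (adjusted p 0.521) in TPM and -0.50 (adjusted p 0.0647) without shPkm2 library 2. Sfxn1, which carries serine into mitochondria, was higher in both (1.98 and 1.84), and Slc1a4, a neutral amino acid transporter of the plasma membrane, rose in shPkm1 (1.68, adjusted p 1.47e-08). Slc6a9, the glycine transporter, stood at -2.41 in the shPkm2-labelled libraries.

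In the methionine cycle and transsulfuration, 3 of 9 tested genes were higher and 4 lower in shPkm1, and 2 higher and 2 lower in the shPkm2-labelled libraries. With library totals only the counts were 5 and 1, and 3 and 1, and in TPM 5 and 0, and 3 and 1. The number lower in shPkm1 also fell to 0 without shPkm1 library 2, to 1 without either shPkm2 library and to 2 without shPkm1 library 1 or shScr library 2. For the shPkm2-labelled libraries, leaving out shScr library 1 or either of their own gave 1 and 1, and leaving out shPkm1 library 2 gave 2 and 1. Cth, which makes cysteine from cystathionine, was higher in shPkm1 (1.53, SE 0.192, adjusted p 1.56e-05) and lower in the direct comparison (-1.51). Mat2a, which makes S-adenosylmethionine, was lower in both groups (-0.49 and -0.78). The second value was -0.45 with library totals only and -0.32 in TPM, both called. Its fall in shPkm1 was -0.09 (adjusted p 0.498) in TPM and -0.37 (adjusted p 0.0534) without shPkm1 library 2.

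The Atf4 and amino acid response list, which shares no gene with the 9 enzymes, had 11 of 16 genes higher and 1 lower (Atf3, -1.10, or -0.63 in TPM) in shPkm1, and 0 higher and 14 lower in the shPkm2-labelled libraries. Without shScr library 1, 2 were lower in shPkm1. In the direct comparison 15 of 16 were lower. Medians were 0.53, -0.835 and -1.425. In TPM the counts were 13 higher and 1 lower, 1 and 10, and 0 and 14. Trib3, a pseudokinase of the stress response, changed by 2.17 and -1.498 against shScr (the latter -0.92 in TPM), and Chac1, which degrades glutathione, by 1.42 and -1.95. Atf4 itself changed by 0.45 and -0.59 and Asns, the asparagine synthetase, by 0.71 and -0.80, both named after their values were seen. In TPM their rises in shPkm1 were 0.85 and 1.1. The fall of Atf4 was -0.26 (adjusted p 0.0312) with library totals only and -0.10 (adjusted p 0.375) in TPM, and that of Asns -0.47 and -0.33. In the direct comparison 5 of the 9 enzymes (Psat1, Psph, Mthfd2, Aldh1l2 and, narrowly, Shmt2) were likewise lower, 3 (Shmt1, Mthfd1 and Mthfd1l) were higher and Phgdh was not called. Mki67, a proliferation marker, changed by 1.46 and 2.905 and Myog, a regulator of muscle differentiation, by -0.94 (-0.54 in TPM) and -5.35. The part of these differences in the levels of the enzymes was not tested.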

How the data were processed

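Per the labels' protocols, TRIzol was used for extraction and a commercial provider prepared the libraries. The submitters' processing notes name HISAT, StringTie, Bowtie, RSEM, DESeq2 and mm10 without roles or versions. The authors deposited estimated counts and TPM per transcript for each library. The authors also deposited FPKM values per transcript and 9 columns of group means, which were not used here. Estimated counts of 57920 transcripts were summed over 17558 genes and rounded. TPM were summed likewise and used for levels between genes and ratios. Symbols came from the RefSeq GRCm38.p6 table for 17445 genes.

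Genes were kept by edgeR 4.0.16's filterByExpr (minimum count 10, total 15), scaled by TMM and tested with its quasi-likelihood F-test over all 6 libraries, with Benjamini-Hochberg adjustment over 12643 genes and a threshold of 0.05. On simulated data for shPkm1 against shScr, 95% of 100 genes with a log2 change of 1 and 51% of 100 with 0.5 were recovered. Only these genes were changed, and every group was given the same spread. The rates therefore need not hold for the real libraries. Alternatives used DESeq2 1.42.0 and limma 3.58.1. Depth was 18216896 to 19796036 counts per library.

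The members and the lists were chosen with earlier results of these data known. From each pathway list and the Atf4 list, up to 2 genes per comparison and direction were eligible for naming, with the largest change among those called, with a mean of at least 50 counts and groups that did not overlap; Mthfd2l and Aldh1l1 were always named. Some genes that met this rule are not reported here. Sequences and start sites came from RefSeq, GRCm38.p6.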

Additional observations from a re-analysis of the deposited data

How the results depend on the processing

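Of 432 log2 fold changes of the 9 enzymes recomputed under 16 alternatives, 379 kept their direction and side of the threshold. With direction kept, 25 lost a call and 14 gained one. The other 14 changed sign, some of them with a change of call. The cause was not tested. With library totals only, with limma on log2(TPM + 1) and with limma on log2(TPM + 0.1), members lower in shPkm1 numbered 1, 1 and 1 in place of 2, members higher in the shPkm2-labelled libraries 6, 7 and 7 in place of 3, and members lower there 0, 0 and 0 in place of 2. Pathway genes lower in shPkm1 were then 6, 3 and 3 in place of 12, those higher in the shPkm2-labelled libraries 21, 21 and 23 in place of 13, and those lower there 8, 7 and 7 in place of 13. DESeq2 called 6 pathway genes lower in shPkm1.

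With curated transcripts only, calls over all genes were 5296 in place of 7984 in shPkm1 and 4177 in place of 6703 in the direct comparison. Pathway genes lower in shPkm1 were then 7, those higher and lower in the shPkm2-labelled libraries 8 and 6, those lower in the direct comparison 8 in place of 13, and members lower in the shPkm2-labelled libraries 1. Leaving out each replicate in turn gave 1 to 2 members lower in shPkm1, 6 to 10 pathway genes lower there, 1 to 3 members lower in the shPkm2-labelled libraries, and 8 to 13 pathway genes lower there.

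Values against shScr that changed sign were all in the shPkm2-labelled libraries. In the order library totals, TPM + 1 and TPM + 0.1, they were 0.042, 0.169 and 0.17 for Psat1, 0.30, 0.42 and 0.42 for Shmt2 and 0.16, 0.28 and 0.29 for Mthfd2. Without shScr replicate 2 they were -0.038 for Phgdh and -0.014 for Aldh1l2, without shPkm2 replicate 1 -0.072 for Aldh1l2, without shScr replicate 1 0.009 for Shmt2 and without shPkm2 replicate 2 0.004 for Shmt2. Over all replicates left out, the ranges were -0.038 to 0.125 for Phgdh, -0.068 to 0.009 for Shmt2 and -0.072 to 0.156 for Aldh1l2. Leaving 1 library in a group assumes that it varies like the other groups.

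Libraries with the same replicate number deviated together little (correlations -0.003, -0.034 and 0.096 over 10953 genes). These values cannot show whether libraries were handled in pairs, which the labels do not say. With the replicate as a block, 7922, 8566 and 6682 genes were called, members higher and lower were 6 and 2, 3 and 2, and 3 and 4, and Shmt2 lost its call in the direct comparison (adjusted p 0.0683). The lowest count of any of the 9 enzymes in a library was 125, for Shmt1 in shPkm1.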

Other observations

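The deposited values are per transcript, and the transcripts of a member can be read separately. Psph had a curated transcript that made up 72.5% to 87.9% of its TPM and a predicted one that made up 12.1% to 27.4%. Shmt2 had a shorter alternate transcript at 14.9% and 17.4% of its TPM in shScr, 22.6% and 18.7% in shPkm1 and 11.2% and 13.7% in the shPkm2-labelled libraries. The main transcript of Mthfd1l held 84.0% to 95.4% of its TPM. Such shares rest on the authors' division of shared reads between transcripts and were not tested.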
